A study of Mus musculus with 19 samples.

Results

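Whole spleens carrying tumours in Rosa26-HGAL+Sca1-Cre mice were set against whole spleens of wild-type mice. The 4 tumour arrays and 3 wild-type arrays were chosen by their titles, out of 19 arrays in the series. The tumour-bearing mice carry a human HGAL transgene at the Rosa26 locus and a Sca1-Cre transgene. Sca1 is an antigen of haematopoietic stem and progenitor cells, so its promoter starts recombination far upstream of the B cell, and descendants of those cells in any blood lineage can carry the recombined locus. The control mice are labelled wild type. No Cre-only or transgene-only spleens are analysed here, so HGAL, Cre and any difference of strain cannot be told apart in this comparison. The series' other groups stand beside it: 3 pre-tumoural Rosa26-HGAL+Sca1-Cre spleens, 4 tumour-bearing Rosa26-HGAL+Aid-Cre spleens and 5 tumour-bearing Rosa26-HGAL+Mb1-Cre spleens, in which Cre is driven from genes of activated B cells and of early B cells. The labels give no age, strain or sex.

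HGAL, the human germinal centre-associated lymphoma protein, is an adaptor of germinal centre B cells that binds Syk and Grb2 at the B cell receptor and raises RhoA signalling. Its mouse counterpart is Gcsam. Germinal centres are the follicle structures in which activated B cells mutate their antigen receptors and are selected by follicular helper T cells, and diffuse large B-cell lymphoma, the disease named in the series title, often arises from such cells. Whole spleen also holds T cells, NK cells, macrophages, neutrophils, erythroid precursors and stroma, so a level here is an average over cells, and fewer cells of a type and less RNA per cell cannot be told apart.

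All levels are log2 RMA values, so a difference of 1 is a doubling of the array signal, and genes are compared with themselves across arrays. A gene was called at a limma adjusted p under 0.05 over 22180 genes. Between Sca1-Cre tumour and wild-type spleens 9 genes were called, 0.0406% of those tested, of which 2 rose (0.00902%) and 7 fell (0.0316%). Of all genes, 48.9% had a difference above 0. Without tumour 4 the count was 2, and without wild-type replicate 1, 2 or 3 it was 4, 2 or 3. It was 0 when wild-type replicate 2 and the Mb1-Cre array with pancreatic transcripts were both left out. Over the 7 fits that left out 1 array, Pias3 and Mir466h were called in 7, Mir669a-3 in 4, Gm6625 in 2, and U2af1l4, Leng8, Prelid2, BC064078 and Ipw in 1 each. With sex as a covariate 6 genes were called, 4 of them among the 9, and those 5 lost their call (limma adjusted p between 0.0605 and 0.0957). At an unadjusted p under 0.05 there were 2521 genes, 1357 of them higher in tumours. A gene was said not to overlap when all 4 tumour arrays lay above, or all 4 below, all 3 wild-type arrays: 1378 genes (6.21%) lay above and 1299 (5.86%) below. Tumour spleens correlated with each other at 0.971 to 0.984, and wild-type spleens at 0.986 to 0.991. Y-linked signal was present on 2 of 4 tumour arrays (replicates 2 and 4) and on 3 of 3 wild-type arrays. Wild-type replicate 2 had exocrine pancreas transcripts, with a list median of 0.61 above the wild-type mean.

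Of the 9 called genes, the one with the smallest p was Pias3, a SUMO ligase that inhibits STAT3. Pias3 was at 6.97, 6.91, 6.76 and 6.74 in Sca1-Cre tumour spleens, against 7.44, 7.58 and 7.54 in wild-type spleens. It fell by 0.67 ± 0.08 (SE, limma adjusted p = 0.00431). All 4 tumour arrays were lower than all 3 wild-type arrays. Of the 21 measured genes of the PIAS, SOCS, STAT and JAK list, Pias3 alone was called, and the list's median difference was 0.05, against -0.00 over all genes, and -0.03 with sex as a covariate. Pias1, a related ligase, was at 9.92, 9.58, 9.39 and 9.46 in tumours and 9.87, 10.01 and 9.73 in wild type, with a difference of -0.29 ± 0.14 (limma adjusted p = 0.472). Stat3, the transcription factor that Pias3 restrains, was at 9.79, 9.76, 9.98 and 9.92 in tumours, against 9.68, 9.47 and 9.35 in wild type. Those Stat3 groups did not overlap, but the difference of 0.36 ± 0.15 was not called (limma adjusted p = 0.381).

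A pair of RNA-processing genes was lower in every tumour. U2af1l4, a relative of the small subunit of the splicing factor U2AF, was at 7.31, 7.27, 7.25 and 7.26 in tumours, against 7.79, 7.77 and 7.76 in wild type, and fell by 0.50 ± 0.08 (limma adjusted p = 0.0389). Both groups were very tight for U2af1l4, with spreads of 0.03 and 0.02 (SD). Leng8, a nuclear protein linked to mRNA export, was at 8.89, 8.98, 8.76 and 8.89 in tumours, against 9.44, 9.86 and 9.77 in wild type, and fell by 0.81 ± 0.13 (limma adjusted p = 0.0423). Among 33 measured splicing factors 4 lay above and 5 below wild type on every array, against 6.21% and 5.86% of all genes. The median difference was -0.08, and 0.03 without wild-type replicate 2. Of 8 measured hnRNP proteins, which coat nascent RNA, 3 were higher on all tumour arrays. Hnrnpa0 was at 9.23, 9.06, 8.94 and 9.44 in tumours and 8.43, 8.57 and 8.40 in wild type (difference 0.70 ± 0.12, limma adjusted p = 0.0506). Cwc15, a spliceosome component, was at 9.03, 8.91, 9.24 and 9.37 in tumours and 8.61, 8.47 and 8.44 in wild type (difference 0.63 ± 0.11, limma adjusted p = 0.0506). Hnrnpk and Hnrnpd were also higher on all tumour arrays, by 0.41 and 0.28. The RNA helicase Ddx5, the SR-protein kinase Clk2 and the SR-related Pnisr were lower on all tumour arrays, with differences of -0.64, -0.43 and -0.44, and none of these 5 genes was called.

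Prelid2, a member of the PRELI family of mitochondrial proteins, was at 5.89, 5.96, 6.59 and 6.29 in tumours and at 7.36, 7.07 and 7.44 in wild type. Prelid2 fell by 1.11 ± 0.18 (limma adjusted p = 0.044). Mir466h and Mir669a-3, from the repeated microRNA cluster within the Sfmbt2 gene, were both lower. Mir466h was at 5.69, 5.79, 5.54 and 5.55 in tumours, against 7.81, 7.77 and 7.72 in wild type, and fell by 2.12 ± 0.26 (limma adjusted p = 0.00431). Mir669a-3 was at 4.72, 4.91, 5.07 and 4.70 in tumours, against 7.10, 7.42 and 7.86 in wild type, and fell by 2.61 ± 0.36 (limma adjusted p = 0.0143). For Mir669a-3, 3 of the 4 tumour values lay under the 40th percentile of all values (5.03), so the size of its fall is uncertain. Of 24 measured probe sets of that cluster, 8 were lower and 2 higher on all tumour arrays, against 5.86% and 6.21% of all genes, with a median difference of -0.24. Mir669m-1 and Mir297a-4 had differences of -1.11 and -1.05 without being called. The cluster's members are near-identical copies, so the array may not separate them. Without wild-type replicate 2 the cluster's median was -0.03. Ipw, an imprinted non-coding RNA, was called at -0.44 but lay at 3.67 to 3.88 in tumours and 4.18 to 4.24 in wild type, also under that percentile.

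The 2 called genes that rose are annotated as a pseudogene and a long non-coding RNA. The pseudogene Gm6625 was at 10.59, 10.74, 10.40 and 11.08 in tumours, against 9.63, 9.64 and 9.87 in wild type (difference 0.99 ± 0.16, limma adjusted p = 0.0389). The non-coding RNA BC064078 was at 8.64, 8.93, 8.75 and 9.09 in tumours, against 8.18, 8.05 and 7.70 in wild type (difference 0.88 ± 0.15, limma adjusted p = 0.0495). For 7 of the 9 called genes, all 12 arrays of the other HGAL groups also lay beyond the wild-type range on the same side as the Sca1-Cre tumours. These comparisons share the wild-type arrays, and the calls rest on a spread that includes those 12 arrays. The same share over all genes was not counted, so the 7 of 9 is a description. Mir466h averaged 5.64 in Sca1-Cre tumours and 5.76 in pre-tumour spleens. Its mean was 6.04 with Aid-Cre, 6.64 with Mb1-Cre and 7.77 in wild type. The 2 exceptions were Leng8 and BC064078. BC064078 averaged 8.85 in Sca1-Cre tumours and 8.31 in pre-tumour spleens. Its mean was 7.65 with Aid-Cre, 8.02 with Mb1-Cre and 7.97 in wild type.

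**Figure D1:**
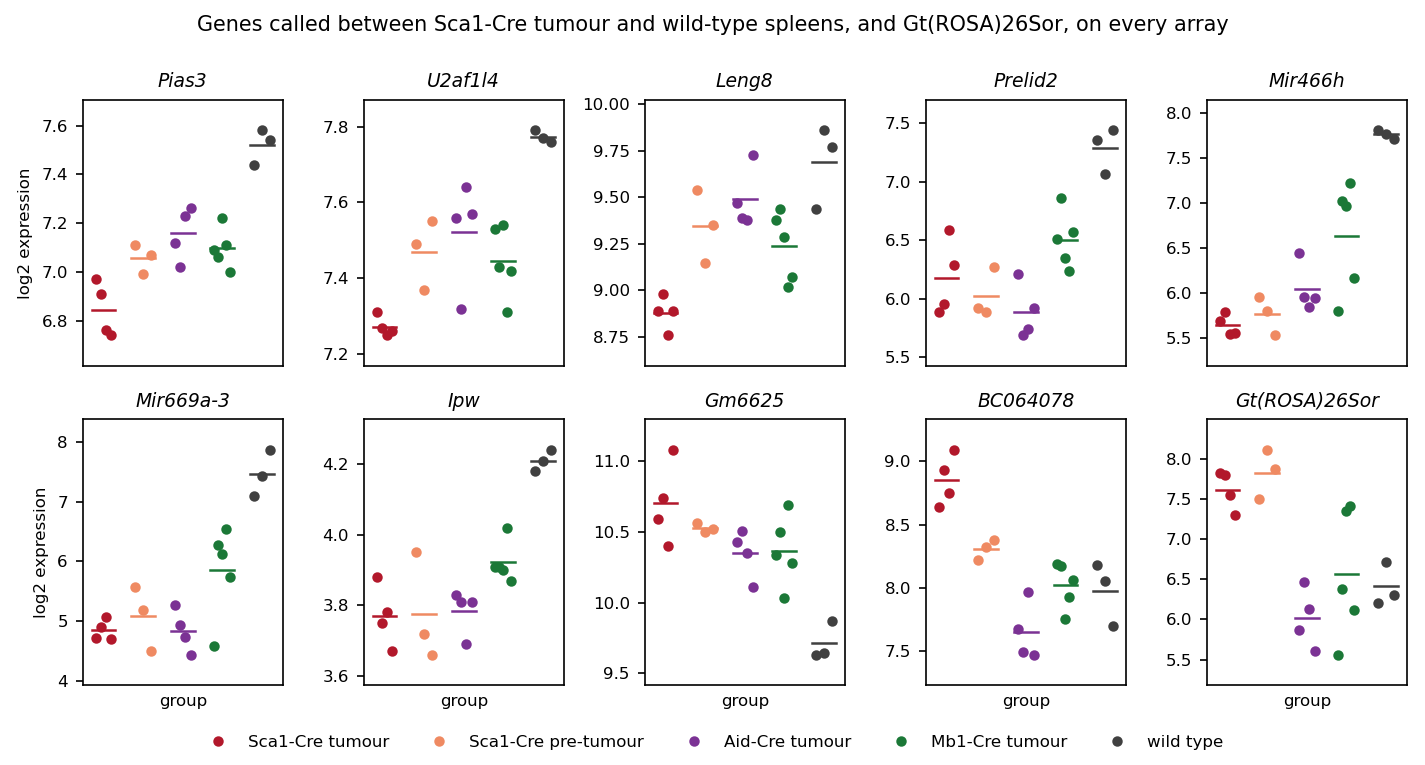
Log2 expression (vertical axes, not starting at 0) of the 9 called genes and Gt(ROSA)26Sor on every array, with 1 point per array, a line at each group mean and groups set side by side. For Pias3, U2af1l4, Prelid2, Mir466h, Mir669a-3, Ipw and Gm6625 all 16 arrays from HGAL mice lie on one side of the wild-type arrays, while BC064078 separates the Sca1-Cre tumours from the other tumours.

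Gt(ROSA)26Sor is the non-coding RNA made at the locus that carries the transgene, and it was singled out after its values were seen. It was at 7.82, 7.80, 7.55 and 7.30 in Sca1-Cre tumours, against 6.21, 6.72 and 6.31 in wild type. The groups did not overlap, and the difference was 1.21 ± 0.36 (limma adjusted p = 0.212). Pre-tumour Sca1-Cre spleens were at 7.50, 8.11 and 7.88. Aid-Cre tumours ranged between 5.61 and 6.47 with a median of 6.0, and Mb1-Cre tumours between 5.56 and 7.41. In the comparison with the mean of the Aid-Cre and Mb1-Cre tumours, Gt(ROSA)26Sor was higher by 1.33 ± 0.28 (limma adjusted p = 0.0469). That call was kept in 1 of 13 fits leaving out 1 array, with the adjusted p reaching 0.167.

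The signalling genes around HGAL had a median difference of -0.29 over 12 measured genes, and -0.09 without tumour 3. Gcsam, the mouse gene, was at 5.74, 5.82, 6.38 and 10.41 in tumours, against 6.02, 5.92 and 5.36 in wild type. Gcsam lay within the wild-type range in tumours 1 and 2 and just above it in tumour 3, while tumour 4 stood 4.03 above every other array. This value is for the mouse gene, and the level of the human transgene is not analysed here. Blnk, the adaptor that links Syk to phospholipase C, was at 10.13, 10.02, 8.76 and 10.01 in tumours and 10.28, 10.45 and 10.37 in wild type (difference -0.64 ± 0.58, limma adjusted p = 0.74). The kinases Syk and Btk had differences of -0.39 ± 0.41 and -0.32 ± 0.29. Rhoa, the small GTPase, was at 11.30, 11.18, 11.21 and 11.21 in tumours, against 10.94, 11.00 and 10.78 in wild type. Those Rhoa values did not overlap, with a difference of 0.32 ± 0.09 (limma adjusted p = 0.212). That difference was 0.23 under quantile normalization and 0.19 under cyclic loess. Grb2, the adaptor bound by HGAL, differed by 0.42 ± 0.16, with overlapping groups. Receptor chains Cd79a and Cd79b were at 9.72 and 10.26 in tumour replicate 3, the lowest of the 7 arrays for both.

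Germinal centre B cell genes were high in 1 of the 4 tumours. The list's median over 13 genes lay 0.10, 0.11, 0.21 and 2.19 above the wild-type mean in tumours 1 to 4, and the wild-type arrays were at 0.04, 0.03 and -0.16. Tumour 4 was the highest tumour for 12 of the 13 genes. Rgs13, a regulator of chemokine receptor signalling in germinal centre B cells, was at 4.56, 4.14, 3.87 and 10.38 in tumours, against 4.49, 4.30 and 3.95 in wild type. Mybl1, a transcription factor of dividing germinal centre cells, was at 5.89, 6.32, 6.24 and 10.60 in tumours, against 5.74, 6.06 and 5.51 in wild type. In tumours 1 to 3 Rgs13 lay near the wild-type range, and neither Rgs13 nor Mybl1 was called (limma adjusted p = 0.65 and 0.498). Nuggc was at 7.31 in tumour 4 and at 4.36 to 4.61 on the other 6 arrays. Bcl6, the master repressor of the germinal centre programme, was at 8.26, 8.35, 7.84 and 9.70 in tumours, against 8.26, 8.40 and 8.09 in wild type.

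Of the 13 germinal centre genes, 3 were higher on all 4 tumour arrays, against 6.21% of all genes. Fas, the death receptor that germinal centre B cells carry, was at 7.84, 8.25, 8.31 and 9.41 in tumours, against 7.51, 7.23 and 6.91 in wild type (difference 1.24 ± 0.32, limma adjusted p = 0.176). S1pr2, a receptor that confines B cells to the germinal centre, was at 7.19, 7.23, 8.08 and 9.37 in tumours, against 6.96, 6.93 and 7.03 in wild type (difference 1.00 ± 0.34, limma adjusted p = 0.28). Ung, the uracil glycosylase that repairs the lesions of antibody mutation, differed by 0.39 ± 0.17. Lmo2, another germinal centre marker, was at 8.16, 8.70, 8.49 and 8.04 in tumours and 8.64, 8.47 and 8.65 in wild type, and was lowest in tumour 4. The list's median of 0.64 was 0.07 without tumour 4.

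Genes were ranked in each tumour by their gap above the highest, or below the lowest, of the other 6 arrays, among 10776 genes reaching 6 on at least 1 array. This ranking chose the genes by their gaps, so the gaps are a description. Tumour 4 had 137 genes at least 1 above all others and 16 at least 1 below. Tumour 3 had 85 above and 56 below, tumour 1 had 14 and 55, and tumour 2 had 9 and 0. Wild-type arrays had 3 to 12 above and 4 to 6 below. Beside Rgs13 (gap 5.82), Mybl1 and Gcsam, tumour 4 was set apart by the membrane protein Emp2 (9.58, gap 5.07), the potassium channel Kcnma1 (13.42, gap 4.56) and the annexin Anxa10 (7.94, gap 4.03). Lmo7, Gpat2, Rassf6 and Cd109 had gaps of 3.64, 3.20, 2.99 and 2.85. Emp2 was at 4.22 to 4.39 in tumours 1 to 3 and 4.28 to 4.52 in wild type. Kcnma1 varied in both groups, at 7.80, 4.33 and 5.01 in the other tumours and 8.86, 5.03 and 7.69 in wild type. Cd36, a fatty acid receptor, was at 7.73 in tumour 4, 1.58 under every other array.

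**Figure D2:**
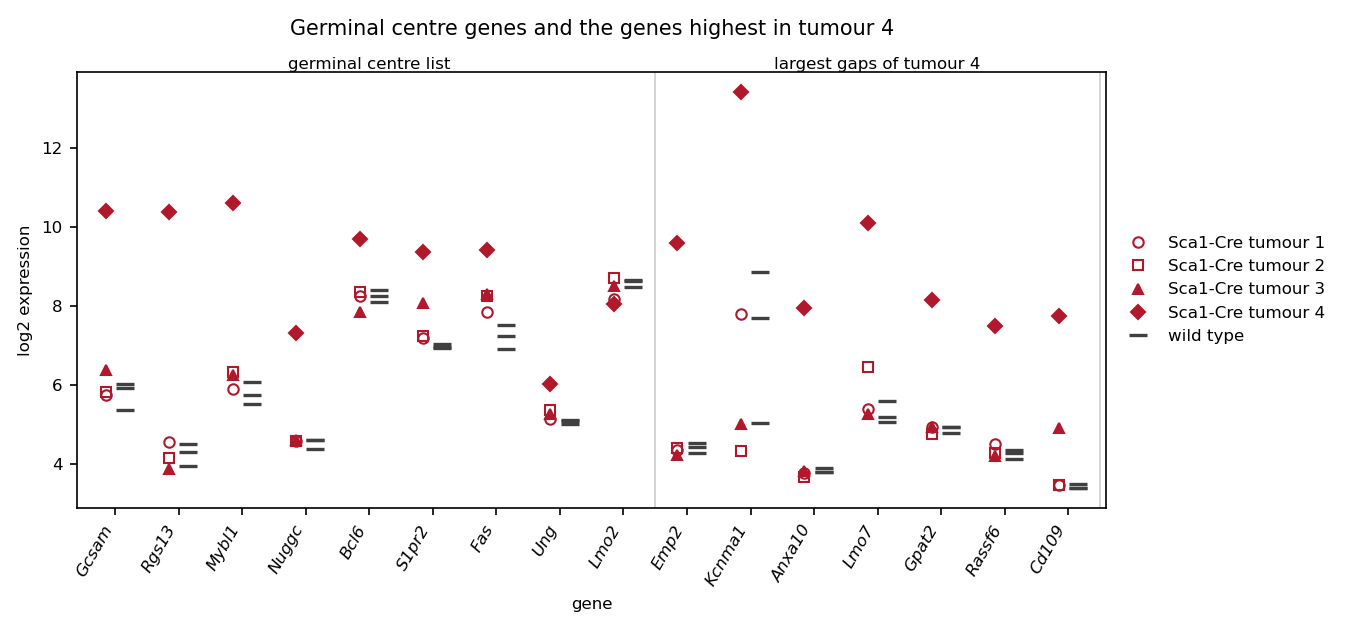
Log2 expression (vertical axis) of 9 germinal centre genes and of the 7 other genes with the largest gaps in tumour 4, with a symbol for each Sca1-Cre tumour and a dash for each wild-type array. Gcsam, Rgs13, Mybl1 and Nuggc stand at 10.41, 10.38, 10.60 and 7.31 in tumour 4 and near the wild-type arrays in tumours 1 to 3.

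B cell identity genes had a median difference of -0.67 over 18 measured genes, with 3 lower on all tumour arrays, against 5.86% of all genes. The tumours' medians were -0.02, -0.24, -1.59 and -0.56 relative to the wild-type mean, and tumour 3 was the lowest tumour for 17 of the 18 genes. Without tumour 3 the median was -0.30. Pax5, the factor that fixes B cell fate, was at 9.51, 9.22, 7.26 and 9.09 in tumours, against 9.67, 9.90 and 9.36 in wild type. Ebf1, its partner, was at 10.48, 9.73, 7.36 and 9.85 in tumours, against 10.27, 10.57 and 10.10 in wild type. The CD20 gene Ms4a1 was at 11.80, 11.43, 9.85 and 11.64 in tumours, against 11.42, 11.63 and 11.16 in wild type. Apart from tumour 3, Ms4a1 lay within or above the wild-type range. Cd37, a tetraspanin, and Pou2f2, an octamer-binding factor, were lower on all tumour arrays, with differences of -0.72 ± 0.39 and -0.69 ± 0.32, and no gene of the list was called. Tumour 3 was also lowest for Cr2, the complement receptor of follicular and marginal zone B cells (7.51, against 10.18 to 11.17 in the other tumours and 11.01 to 11.43 in wild type).

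Antibody genes varied among the tumours. The 17 immunoglobulin V segments had medians of 0.49, -0.28, -1.77 and -1.17 in tumours 1 to 4, against 0.01, -0.35 and 0.33 in wild type. Ighg3, an IgG heavy chain constant gene, was at 8.69, 8.01, 6.01 and 9.22 in tumours, against 9.49, 9.30 and 10.36 in wild type (difference -1.73 ± 0.73, limma adjusted p = 0.382). Plasma cell genes had a median difference of 0.19 over 15 genes, and 0.30 without wild-type replicate 3. Jchain, which joins IgA and IgM polymers, was at 11.24, 10.91, 11.47 and 11.16 in tumours and 11.10, 10.68 and 11.22 in wild type. Sdc1, the plasma cell antigen CD138, was at 6.23, 6.39, 6.54 and 5.86 in tumours and 6.23, 5.92 and 6.15 in wild type. Ell2, an elongation factor used for secreted antibody mRNA, was lower on all tumour arrays (difference -0.58 ± 0.17, limma adjusted p = 0.212).

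Of 17 follicular helper and checkpoint genes, 8 were higher on all tumour arrays, against 6.21% of all genes, with a median difference of 1.16 and no call. The tumours' medians were 0.43, 0.55, 1.82 and 1.64, against 0.06, 0.07 and -0.28 in wild type. Tigit, an inhibitory receptor, had the largest positive difference among the 1007 annotated genes described further on. It was at 6.52, 7.04, 9.40 and 8.14 in tumours, against 6.03, 5.46 and 5.25 in wild type (difference 2.2 ± 0.67, limma adjusted p = 0.221). Icos, the costimulator of follicular helper T cells, was at 7.72, 7.53, 8.92 and 8.78 in tumours, against 6.73, 7.02 and 6.50 in wild type (difference 1.48 ± 0.39, limma adjusted p = 0.193). Batf, a transcription factor of these cells, was at 7.07, 7.25, 8.19 and 8.51 in tumours, against 6.64, 6.67 and 6.60 in wild type (difference 1.12 ± 0.28, limma adjusted p = 0.172). Il21, the cytokine that helps germinal centre B cells, was at 5.31, 5.61, 6.05 and 8.01 in tumours, against 5.29, 4.69 and 4.83 in wild type. Maf, Ctla4, Havcr2 and Sh2d1a were the other 4, with differences of 1.25, 1.16, 1.26 and 1.09. Pdcd1, the PD-1 gene, was at 6.85, 7.37, 9.63 and 9.05 in tumours, against 7.22, 6.59 and 6.03 in wild type. Tumour 1 fell within the wild-type range for Pdcd1. Cxcr5, which B cells also express, was lower on average, at 10.03, 9.35, 8.62 and 9.01 in tumours and 9.88, 10.05 and 9.77 in wild type.

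T cell identity genes differed less, with a median of 0.46 over 16 genes, and 0.28 without wild-type replicate 3. Cd3e, a chain of the T cell receptor complex, had a difference of 0.42 with overlapping groups. Cd8a was at 9.96, 8.63, 9.88 and 8.73 in tumours and 9.0, 9.95 and 8.97 in wild type. Cd4 was the one list member without overlap, at 10.16, 9.15, 10.06 and 9.52 in tumours, against 8.13, 9.05 and 7.68 in wild type (difference 1.44 ± 0.46, limma adjusted p = 0.246).

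Of 14 regulatory T cell genes 6 were higher on all tumour arrays, against 6.21% of all genes. The median difference was 0.71, and 0.44 without tumour 3. Itgae, the CD103 integrin, was at 6.49, 6.10, 6.57 and 6.80 in tumours, against 5.47, 6.09 and 5.26 in wild type (difference 0.88 ± 0.20, limma adjusted p = 0.127). Nrp1, a semaphorin receptor of thymus-derived regulatory cells, was at 7.26, 7.33, 8.01 and 7.80 in tumours, against 6.93, 6.72 and 6.77 in wild type (difference 0.80 ± 0.21, limma adjusted p = 0.193). The transcription factor Ikzf2 and the costimulators Tnfrsf9 and Tnfrsf18 differed by 1.11, 1.06 and 0.62. Foxp3, the defining factor of these cells, overlapped between groups, at 7.66, 7.29, 8.05 and 8.21 in tumours and 7.57, 7.72 and 7.28 in wild type (difference 0.28 ± 0.29).

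Cytotoxic genes were highest in tumour 3. The list's 20 genes had medians of 0.73, 0.02, 1.91 and 0.52 in tumours 1 to 4, against 0.10, 0.10 and -0.14 in wild type, with 3 genes higher on all tumour arrays, against 6.21% of all genes. The list's median difference of 0.81 was 0.44 without tumour 3 and 0.43 with sex as a covariate. Gzmb, granzyme B, was at 6.85, 5.58, 9.78 and 7.39 in tumours, against 5.97, 5.81 and 5.41 in wild type. Gzmk was at 7.52, 7.99, 10.76 and 8.98 in tumours, against 7.59, 6.85 and 6.44 in wild type. Granzyme levels in tumour 2 lay within the wild-type range for Gzmb and above it for Gzmk. Ifng, the cytokine of activated T and NK cells, was at 6.55, 5.27, 8.19 and 6.25 in tumours, against 5.28, 4.90 and 5.06 in wild type (difference 1.48 ± 0.51, limma adjusted p = 0.28). The chemokine Ccl5 was at 11.84, 11.52, 13.08 and 11.62 in tumours, against 11.31, 11.19 and 10.81 in wild type, without overlap. Cst7 and Xcl1 were the other 2, with differences of 0.91 and 0.73. Ncr1, the NK cell receptor NKp46, was at 8.37, 7.06, 6.89 and 7.14 in tumours and 7.32, 7.75 and 6.33 in wild type. Tumour 3, the highest for the granzymes, was the lowest tumour for Ncr1.

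**Figure D3:**
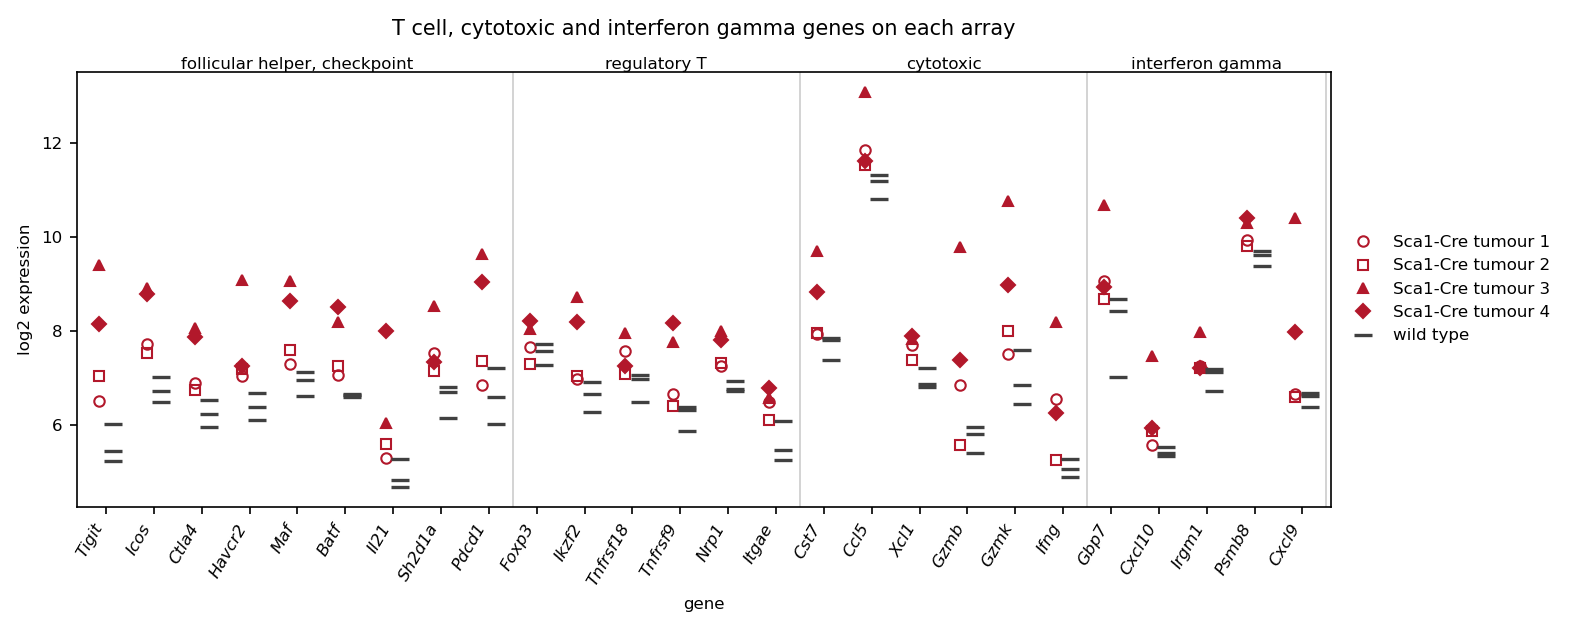
Log2 expression (vertical axis) of follicular helper and checkpoint, regulatory T, cytotoxic and interferon gamma genes, with a symbol for each Sca1-Cre tumour and a dash for each wild-type array. Tumours 3 and 4 stand highest for Tigit, Icos, Maf and Pdcd1, and tumour 3 alone for Gzmb, Ifng and Cxcl9.

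Interferon gamma acts largely through GAS elements in promoters, while type I interferon acts mainly through ISRE elements. Windows of 30 bases are shown for 5 genes of the interferon gamma list, because they hold matches to either element. Sequences are from RefSeq on GRCm38.p6, read on the gene's own strand 5′ to 3′, with the matched letters in capitals. The searches covered 250 bases before and 50 after the start, for TTCNNNGAA (GAS, its own reverse complement) and, on both strands, GAAA, any 2 bases and GAAA (ISRE-like).
Gbp7 GAS, chr3:142530229-142530258, plus strand: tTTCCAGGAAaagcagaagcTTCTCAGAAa
Gbp7 ISRE-like, chr3:142530273-142530302, plus strand: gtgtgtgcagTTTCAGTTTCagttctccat
Psmb8 GAS, chr17:34198088-34198117, plus strand: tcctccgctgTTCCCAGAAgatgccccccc
Irgm1 ISRE-like, chr11:48871428-48871457, minus strand: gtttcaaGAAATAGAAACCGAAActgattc
Socs1 ISRE-like, chr16:10785597-10785626, minus strand: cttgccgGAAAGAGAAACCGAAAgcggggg
Cxcl10 ISRE-like, chr5:92349083-92349112, minus strand: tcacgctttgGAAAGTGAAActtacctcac

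Of 15 interferon gamma list genes with a promoter entry, 7 held the GAS letters and 8 the ISRE-like letters. Of 15 type I list genes with an entry, 1 held the GAS letters and 9 the ISRE-like letters. Among all 32851 promoter entries the shares were 8.30% and 3.44%. These shares are per entry, while a list gene with several entries counted if any of them matched. The capitals in Irgm1 and Socs1 are a pair of overlapping ISRE-like matches each, and the first Gbp7 window holds a pair of GAS matches. A match is a string of letters and no binding was measured here.

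The interferon gamma list had a median difference of 0.36 over 21 genes, with 5 higher on all tumour arrays, against 6.21% of all genes, and none called. The tumours' medians were 0.11, 0.10, 0.96 and 0.53, against 0.14, 0.10 and -0.17 in wild type. Gbp7, a guanylate-binding defence GTPase, was at 9.07, 8.67, 10.68 and 8.94 in tumours, against 8.42, 8.67 and 7.03 in wild type (difference 1.30 ± 0.57, limma adjusted p = 0.40). Tumour 2 and wild-type replicate 2 were nearly level for Gbp7. Cxcl10, a chemokine that draws T cells, was at 5.57, 5.88, 7.47 and 5.94 in tumours, against 5.42, 5.53 and 5.34 in wild type. Irgm1 was at 7.26, 7.21, 7.98 and 7.22 in tumours, against 7.19, 7.14 and 6.73 in wild type. Psmb8, a subunit of the immunoproteasome, was at 9.94, 9.81, 10.30 and 10.40 in tumours, against 9.69, 9.61 and 9.37 in wild type (difference 0.55 ± 0.25, limma adjusted p = 0.415). Its partner Psmb9 differed by 0.62 ± 0.28 with overlap, and Socs1, the feedback inhibitor of interferon signalling, by 0.41 ± 0.14. Cxcl9, a chemokine of the same receptor as Cxcl10, was at 6.67, 6.59, 10.40 and 7.98 in tumours and 6.61, 6.39 and 6.68 in wild type. Its groups overlapped, with tumour 3 far above the rest. The list's median was 0.21 without tumour 3.

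Tumour 3 also led the type I interferon list, at 1.12 against -0.14, 0.32 and 0.28 in the other tumours and -0.07 to 0.14 in wild type. It was the highest tumour for 16 of the 20 genes, and the list's median difference of 0.31 was 0.10 without it. Oasl2, an oligoadenylate synthetase-like protein, was at 6.79, 7.63, 9.97 and 7.88 in tumours and 6.98, 6.18 and 7.05 in wild type. Oas1g, a synthetase of the same family, was at 3.55, 4.2, 8.52 and 5.91 in tumours and 4.32, 4.13 and 3.96 in wild type. Ifi205, an interferon-induced DNA-binding protein, was at 7.53, 7.81, 10.40 and 7.95 in tumours and 7.48, 6.63 and 7.39 in wild type. Its groups did not overlap, with tumour 3 at 2.45 above every other array. Other genes with a large gap in tumour 3 were the basophil protease Mcpt8 (9.26, gap 2.35) and the chemokines Ccl4 (8.82, gap 2.22) and Ccl3 (10.78, gap 2.1). Mast cell and basophil genes had a median of 1.26 in tumour 3, against -0.09 to 0.34 in the other tumours and -0.18 to 0.13 in wild type. Neutrophil genes were at 1.79 and 1.6 in tumours 2 and 3, and the wild-type arrays spread between -0.95 and 1.08. The part of these cell types in the tumour 3 values was not tested.

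MHC class I genes had a median difference of 0.30, and 0.18 without tumour 3, with 5 of 16 higher on all tumour arrays, against 6.21% of all genes. Under other scalings the class I median was 0.22 to 0.33. MHC class II genes had a median of -0.16, and 0.01 without tumour 3, with tumour 3 at -0.75 and the other tumours between -0.04 and 0.04. The class II gene H2-Ea, singled out after its values were seen, was at 4.11, 3.82, 4.13 and 3.89 in tumours and 4.22, 3.85 and 3.71 in wild type. Pre-tumour Sca1-Cre spleens were at 10.31, 10.65 and 10.45 for H2-Ea, a gene that some mouse strains do not express. The difference, tumour minus pre-tumour, was -6.48 ± 1.2 (limma adjusted p = 0.412 over all genes). That error rests on the spread shared by all groups of the fit, and is wider than the spread within these groups. The wild-type values were also close together, so the wider spread comes from the Aid-Cre or Mb1-Cre tumours.

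**Figure D4:**
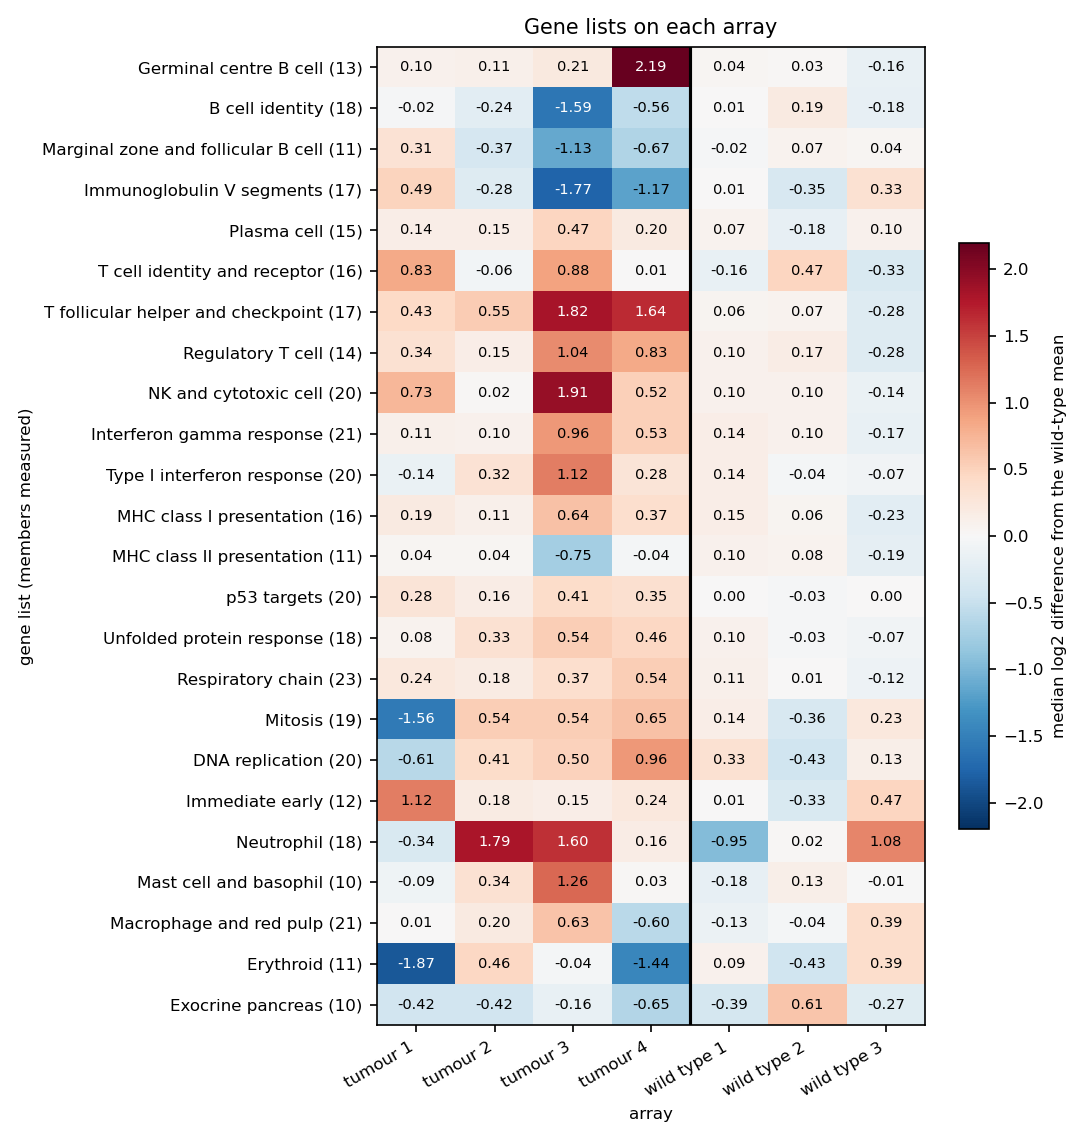
Median log2 difference from the wild-type mean (colour and number in each cell) for 24 gene lists, with the number of measured genes in brackets, on the 4 Sca1-Cre tumour arrays and, right of the line, the 3 wild-type arrays. Tumour 4 stands out for germinal centre genes (2.19), tumour 3 for cytotoxic (1.91) and B cell genes (-1.59), and tumour 1 for mitosis genes (-1.56).

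Targets of p53, the transcription factor of DNA damage, had 9 of 20 genes higher and 1 lower on all tumour arrays, against 6.21% and 5.86% of all genes, and a median difference of 0.26. The tumours' medians were 0.28, 0.16, 0.41 and 0.35, and the wild-type arrays lay between -0.03 and 0.00. No gene of the list was called. Mdm2, the ligase that degrades p53, was at 8.79, 8.25, 8.51 and 8.37 in tumours, against 8.01, 8.10 and 7.95 in wild type (difference 0.46 ± 0.11, limma adjusted p = 0.129). Ccng1, a cyclin G, was at 10.19, 9.84, 10.48 and 10.40 in tumours, against 9.71, 9.68 and 9.28 in wild type (difference 0.67 ± 0.18, limma adjusted p = 0.20). Pmaip1, the death protein Noxa, was at 8.08, 7.17, 7.39 and 7.81 in tumours, against 6.54, 6.50 and 6.73 in wild type (difference 1.02 ± 0.35, limma adjusted p = 0.271). Fas belongs to this list too, and Tnfrsf10b, Trp53inp1, Zmat3, Perp and Bbc3 were the other 5, with differences between 0.15 and 0.60. Eda2r was the gene below wild type, at 3.96 to 4.02 in tumours and 4.09 to 4.25 in wild type, near background. Without tumour 3 the median was 0.16.

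Unfolded protein response genes had 6 of 18 higher on all tumour arrays, against 6.21% of all genes, with a median difference of 0.36. Hspa13, an Hsp70-family chaperone, was at 6.53, 6.65, 7.03 and 6.86 in tumours, against 6.12, 6.11 and 5.86 in wild type (difference 0.74 ± 0.14, limma adjusted p = 0.0826). Hspa5, the main chaperone of the endoplasmic reticulum, was at 9.11, 9.26, 9.54 and 9.69 in tumours, against 9.03, 8.83 and 8.92 in wild type. Edem1, Dnajb11 and Dnajc3, which act in folding and disposal of misfolded proteins, differed by 0.49, 0.44 and 0.50. Respiratory chain genes had 11 of 23 higher on all tumour arrays, against the same 6.21%, and a median of 0.32. Under other scalings that median was 0.24 to 0.34, and that of the unfolded protein response list 0.3 to 0.39. The 6.21% is over all genes, dim ones included, and no share was counted for genes of like level. Cox7b, a subunit of cytochrome c oxidase, was at 8.60, 8.38, 8.74 and 8.79 in tumours, against 7.68, 7.50 and 7.80 in wild type (difference 0.97 ± 0.25, limma adjusted p = 0.176). Averaging its probe sets gave 0.51 for Cox7b, and 0.31 for Edem1. Uqcrb, of complex III, was at 10.56, 10.73, 10.59 and 10.88 in tumours, against 10.25, 9.99 and 10.16 in wild type (difference 0.56 ± 0.12, limma adjusted p = 0.125). No gene of either list was called.

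Mitosis genes had a median difference of 0.06, and tumour 1 stood apart at -1.56, against 0.54, 0.54 and 0.65 in the other tumours and -0.36 to 0.23 in wild type. The median was 0.55 without tumour 1 and -0.15 without tumour 3. Tumour 1 was the lowest tumour for all 19 mitosis genes and all 20 DNA replication genes. Birc5, survivin of the chromosomal passenger complex, was at 5.10, 8.11, 7.92 and 7.6 in tumours and 7.85, 6.90 and 7.88 in wild type. Ccna2, cyclin A, was at 7.86, 10.21, 9.89 and 9.64 in tumours and 9.94, 9.48 and 9.83 in wild type. Pre-tumour spleens averaged 5.50 for Birc5 and 8.0 for Ccna2, near tumour 1. Erythroid genes had medians of -1.87, 0.46, -0.04 and -1.44 in tumours 1 to 4, against -0.43 to 0.39 in wild type. They were thus low in tumour 1 and also in tumour 4, which had the highest mitosis median, and their part in the mitosis values was not tested. Immediate early genes, which respond within minutes to stimulation or handling, were highest in tumour 1, at 1.12 against 0.15 to 0.24 in the other tumours. The wild-type arrays were at 0.01, -0.33 and 0.47. Aid-Cre replicate 3 and Mb1-Cre replicate 1 were higher still, at 1.3 and 1.71. Jun was at 10.23, 8.98, 8.22 and 8.48 in tumours, against 7.74, 6.39 and 8.09 in wild type, without overlap. Junb and Ier2 were at 10.04 and 8.76 in tumour 1, with gaps of 1.08 and 1.15.

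Annotated genes were ranked by difference if they did not overlap, had an unadjusted p under 0.05 and reached 6 in the higher group mean. A gene could thus pass through 1 group alone. Of the 1007 that passed, 681 were higher and 326 lower in tumours. Without the filters on level, p and annotation, 1378 genes (6.21%) lay above and 1299 (5.86%) below. Among the 10 highest and 10 lowest of the 1007, only Prelid2 was called. Rgs1, which dampens chemokine receptors in activated lymphocytes, was at 8.28, 7.23, 8.52 and 8.08 in tumours, against 6.41, 6.27 and 5.58 in wild type (difference 1.94 ± 0.58, limma adjusted p = 0.214). Zdhhc2, a palmitoyltransferase, was at 6.13, 6.02, 7.6 and 8.25 in tumours, against 5.34, 5.52 and 5.24 in wild type. Cep55, of the last step of cell division, was at 5.68, 5.90, 7.10 and 8.65 in tumours, against 5.10, 5.36 and 5.38 in wild type. Ahcy, which hydrolyses adenosylhomocysteine, was at 7.85, 7.28, 7.17 and 8.49 in tumours, against 6.87, 6.04 and 5.73 in wild type. Its difference of 1.49 was 0.41 when its probe sets were averaged. Havcr1, the TIM-1 receptor, was at 5.69, 6.83, 6.25 and 8.45 in tumours, against 5.66, 5.60 and 5.20 in wild type. Zdhhc2, Cep55, Ahcy and Havcr1 were all highest in tumour 4. Wfdc17, a myeloid secreted protein, differed by 1.41 and was highest in tumour 2, at 9.74.

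On the lower side, Lynx1, a Ly6-family modulator of acetylcholine receptors, was at 7.26, 6.92, 6.45 and 5.88 in tumours, against 8.07, 8.16 and 8.48 in wild type (difference -1.6 ± 0.51, limma adjusted p = 0.245). Cpne4, a copine, was at 5.27, 5.99, 5.14 and 4.96 in tumours, against 7.19, 7.13 and 6.08 in wild type (difference -1.46 ± 0.33, limma adjusted p = 0.127). Apobec3, a deaminase that restricts retroviruses and varies between mouse strains, was at 7.99, 9.82, 9.59 and 9.42 in tumours, against 9.98, 10.86 and 10.60 in wild type. The kinases Mapk12 and Map3k19 differed by -1.16 and -1.08. Erdr1, Tac2 and Tmem86b differed by -1.47, -1.36 and -1.05. Il27, whose product is a subunit of a cytokine of dendritic cells and macrophages, was at 5.96, 6.07, 6.19 and 5.81 in tumours, against 6.60, 6.53 and 6.78 in wild type (difference -0.63 ± 0.11, limma adjusted p = 0.0506).

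Against the 3 pre-tumour spleens labelled with the same transgenes, no gene was called with limma. An unadjusted p under 0.05 was found for 1185 genes (5.34%), with 2.42% of all genes higher and 2.93% lower. The smallest adjusted p was 0.14. The H2-Ea levels given above separate all 3 pre-tumour spleens from all 4 tumours, the labels give no strain, and a strain difference between these groups cannot be told apart from tumour stage. Pias3 was at 7.11, 6.99 and 7.07 in pre-tumour spleens, between the Sca1-Cre tumours and wild type. Fas averaged 8.45 in tumours and 7.38 in pre-tumour spleens (difference 1.07 ± 0.32, limma adjusted p = 0.851). Median differences of the follicular helper, germinal centre and B cell identity lists were 0.38, 0.78 and -0.68 in this comparison. Cytotoxic genes had a median of -0.00. The regulatory T cell, interferon gamma, MHC class I and T cell identity lists had medians of 0.06, 0.08, 0.04 and -0.21. Mitosis genes had a median of 1.5 and erythroid genes of 1.17.

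Against the mean of the Aid-Cre and Mb1-Cre tumours, 117 genes were called with limma (0.528%), of which 100 were higher (0.451%) and 17 lower (0.0766%) in Sca1-Cre tumours. Both comparisons use the same Sca1-Cre arrays, and BC064078 and Leng8 were called in both. The count depended on single arrays: it lay between 1 and 568 over 13 fits leaving out 1 array, was 1 without Sca1-Cre tumour 4, Aid-Cre replicate 1 or 4, or Mb1-Cre replicate 3 or 4, and 568 without Aid-Cre replicate 3, and was 8 after quantile normalization. BC064078 was called in all 13 such fits, with a difference of 1.02 ± 0.12 (limma adjusted p = 0.00312).

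Among the lists, 2 of 17 follicular helper genes, 2 of 20 p53 targets and 1 of 14 regulatory T cell genes were called higher. The share over all genes was 0.451%. The germinal centre, T cell identity, interferon gamma, MHC class I, dendritic cell, NF-kB, splicing and unfolded protein response lists had 1 each. A gene such as Fas counts in more than 1 list. Cd4 was at 10.16, 9.15, 10.06 and 9.52 in Sca1-Cre tumours, against 6.40 to 8.94 in Aid-Cre tumours (median 7.69) and 7.82 to 8.75 in Mb1-Cre tumours (difference 1.78 ± 0.36, limma adjusted p = 0.0456). Icos ranged between 6.02 and 7.36 in Aid-Cre and 5.94 and 7.09 in Mb1-Cre tumours, all under the lowest Sca1-Cre tumour (difference 1.48 ± 0.31, limma adjusted p = 0.0456). Batf and Itgae were higher by 1.14 ± 0.22 and 0.73 ± 0.16 (limma adjusted p = 0.0446 and 0.048). Fas and Ccng1 were higher by 1.23 ± 0.25 and 0.72 (limma adjusted p = 0.0448 and 0.0446). The immunoproteasome subunit Psmb9 was higher by 1.05 (limma adjusted p = 0.0456), and Casp4, the inflammatory caspase that senses lipopolysaccharide, by 0.97 ± 0.14 (limma adjusted p = 0.0394). Casp4 was at 8.92, 8.94, 9.47 and 9.30 in Sca1-Cre tumours, against 7.69 to 8.33 in Aid-Cre and 7.96 to 8.59 in Mb1-Cre tumours. Over the 13 fits leaving out 1 array, Casp4 was called in 8, Batf in 5 and Fas in 4. Icos, Cd4, Psmb9 and Ccng1 were called in 3, and Itgae in 2. After quantile normalization only Casp4 of these genes kept its call (limma adjusted p = 0.0433). Sec24d, a coat protein of transport vesicles, was higher by 0.80, the vesicle fusion protein Vamp7 by 1.01, the chaperone Hspa13 by 0.59 and the mitochondrial Tmem126a by 1.24. Apol9a, Il27, Leng8 and Mbd6 were lower, with differences of -0.59, -0.45, -0.49 and -0.48.

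**Figure D5:**
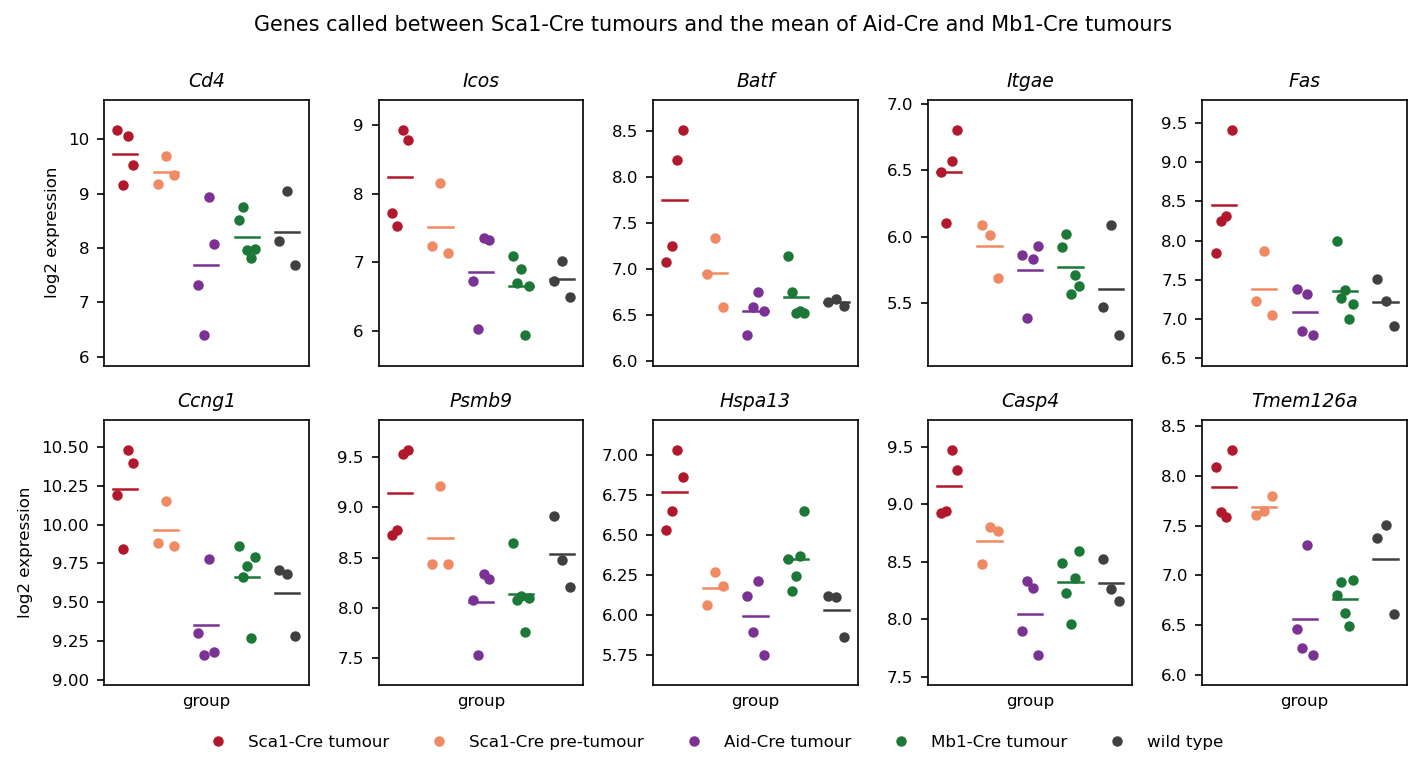
Log2 expression (vertical axes, not starting at 0) of 10 genes called between the Sca1-Cre tumours and the mean of the Aid-Cre and Mb1-Cre tumours, on every array, with 1 point per array and a line at each group mean. For Icos, Cd4 and Casp4 the 4 Sca1-Cre tumours lie above all Aid-Cre and Mb1-Cre tumours, and the pre-tumour spleens average 7.51, 9.40 and 8.68.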

How the data were processed

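Total RNA of whole spleens was labelled with biotin and hybridised to whole-transcript arrays, per the labels. The authors made the deposited log2 values with RMA in the package oligo, per the submitters' processing notes; the sources used here name no version or genome build. The 19 arrays had medians between 5.23 and 5.40. Arrays have no read depth, and precision is limited by their number.

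Of 41345 probe sets, 23521 carried 1 gene symbol, 1814 several and 16010 none. Gene identifiers matched the RefSeq gene table for 23328, with 0 symbols updated. For 1082 genes with several probe sets the one with the highest mean was used, leaving 22180 genes with no filter on dim values.

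One limma 3.58.1 fit (R 4.3.3) with a mean for each group and all 19 arrays (14 residual and 2.46 prior degrees of freedom) gave the contrasts, with Benjamini-Hochberg adjustment over 22180 genes, two-sided. On simulated data for tumour against wild type over 22180 genes, it recovered 34% of genes changed by 0.5, 92% at 1, 90% at 1.5 and 92% at 2, with 6 false calls. The simulation used independent noise, an equal spread in every group and the same shift in all tumours. Changes that differ between tumours were not simulated, so these shares do not carry over to them. Genes were named by rule: all called genes; up to 10 per direction among those called against other tumours and among annotated non-overlapping genes with a group mean of 6; each described list's 6 smallest p, defining markers and, for 8 lists, non-overlapping members; and the largest gaps of each tumour. Gt(ROSA)26Sor and H2-Ea fell outside it. The members and the 41 gene lists were chosen with earlier results of these data known. Motifs were searched in RefSeq promoters. The labels call the arrays biological replicates. Alternatives were 3 scalings, a filter on dim genes, 2 probe set rules, only the compared groups, trend with robust variance, array weights, a replicate block, sex as a covariate and each array left out; leaving out both arrays with pancreatic transcripts was added after seeing the data.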

Additional observations from a re-analysis of the deposited data

Results flagged for a closer look

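Single tumours stood apart from the other 3 in the Sca1-Cre group by Dixon's ratio, the gap to the nearest tumour over the range of the 4, set against its critical value. Of 192 named genes 27 passed it, and of 40 list medians 8. Chance gives about 1 group in 20, and many of these genes were named for their gaps.

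In tumour 4 the high values were those of Gcsam (0.863), Rgs13 (0.894), Mybl1 (0.908), Nuggc (0.99), Emp2 (0.969), Anxa10 (0.962), Gpat2 (0.942) and Rassf6 (0.908), and the germinal centre list median (0.948). Ratios of genes named in other lists were 0.917 for Blnk, 0.91 for Hnrnpk, 0.895 for Hnrnpd, 0.899 for Havcr2, 0.83 for Ncr1, 0.929 for Irgm1, 0.853 for Ifi205 and 0.931 for Perp. Genes ranked by their gap in tumour 1 were Ptgs2 (0.868), Crisp3 (0.889), Ier2 (0.971), Junb (0.908), Anln (0.889), Birc5 (0.831) and Depdc1a (0.956). Those ranked in tumour 2 were Fzd6 (0.899), Asprv1 (0.912), Klrb1 (0.875) and Bmp6 (0.978). The other list medians had ratios of 0.898 (MHC class II), 0.951 (mitosis), 0.872 (PIAS, SOCS, STAT and JAK), 0.92 (Bcl2 family), 0.954 (NF-kB), 0.912 (immediate early) and 0.832 (immunoglobulin constant genes). A high ratio can go with a small gap. In tumours 1 to 4 the NF-kB medians were 0.14, -0.02, -0.02 and -0.03, against -0.2 to 0.13 in wild type. Those of the Bcl2 family were 0.21, 0.08, 0.08 and 0.09, and those of the PIAS list 0.12, -0.02, -0.0 and -0.01.

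For 23 named genes the Sca1-Cre tumours differed from the mean of the Aid-Cre and Mb1-Cre tumours at a limma adjusted p under 0.05. Only BC064078 among them kept its call in each of the 13 fits leaving out 1 array. Among immune and death genes the differences were 1.48 for Icos, 1.78 for Cd4, 1.23 for Fas, 1.14 for Batf, 0.73 for Itgae, 1.05 for Psmb9, 0.72 for Ccng1 and 0.97 for Casp4. Other genes higher in Sca1-Cre tumours were Gt(ROSA)26Sor (1.33), BC064078 (1.02), Cwc15 (0.43), Hspa13 (0.59), Itm2c (0.60), Tmem126a (1.24), Tm2d3 (0.80), Prrc2b (0.53), Sec24d (0.80), Hacd3 (0.84) and Vamp7 (1.01). Leng8 (-0.49), Apol9a (-0.59), Il27 (-0.45) and Mbd6 (-0.48) were lower.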

How the results depend on the processing

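The 9 genes called between Sca1-Cre tumours and wild type became 15 under cyclic loess, 14 when probe sets were averaged, 99 with every probe set tested by itself and 86 with array weights. It was 6 with sex as a covariate, 4 of them among the 9. The count was 2 with only the compared groups in the fit, 4 with trend and robust settings, and 2 to 12 with 1 array left out. Leaving out both arrays with pancreatic transcripts, an alternative chosen after seeing the data, gave 0 calls with limma and 2088 genes at an unadjusted p under 0.05. Same-numbered Sca1-Cre tumour and wild-type arrays had correlations of -0.09, -0.21 and 0.29 in their deviations from the group means. Differently numbered arrays were not compared, so a shared batch was not tested. The replicate block gave 0 calls, with 2122 genes at an unadjusted p under 0.05. Under the block the H2-Ea difference between Sca1-Cre tumours and wild type, 0.06 in the main fit, turned to -0.15.

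Against pre-tumour spleens the count of 0 became 1 with only the compared groups, 1 with array weights and 1 without both pancreatic arrays, and was 0 to 1 with 1 array left out. The 117 genes called against the other tumours became 8 under quantile normalization, 1 with only the compared groups, 12 with trend and robust settings, 69 with array weights, 56 with sex as a covariate, 9 without both pancreatic arrays and 0 under the replicate block (3544 at an unadjusted p under 0.05), and 1 to 568 with 1 array left out. The cause of these shifts was not tested. Of 3637 values of 192 genes over the alternatives, 78 lost a call and 33 gained one. Another 3525 kept their side of the threshold, with direction kept or a sign change smaller than the spread (SD) among the tumours. For 1 value the sign turned by more than that spread. Of 779 list medians 20 moved by more than the spread between replicates. Few arrays per group limit the precision, and values under 5.03 lie near background.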

Other observations

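Glycolysis genes had a median difference of 0.38 between Sca1-Cre tumour and wild-type spleens, with 4 of 13 higher on all tumour arrays, against 6.21% of all genes, and none lower. The tumours' medians were 0.04, 0.35, 0.57 and 0.70, against 0.03, -0.07 and 0.04 in wild type, and tumour 4 was the highest tumour for 9 of the 13 genes. Myc and ribosome biogenesis genes had a median of 0.18, and 0.02 without tumour 4, with 4 of 16 higher on all tumour arrays, against the same share, and tumour 4 was the highest tumour for 14 of them. None of these genes was called with limma. Macrophage and red pulp genes had medians of 0.01, 0.20, 0.63 and -0.60 in tumours 1 to 4, against -0.13, -0.04 and 0.39 in wild type, and tumour 4 was the lowest tumour for 19 of 21.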
